A study of Mus musculus with 8 samples.

Results

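The secretoglobin genes of the LG were the 30 of 24552 genes in the count table whose symbol begins with Scgb and a digit. The members were chosen by symbol, but the family itself was selected on measured values of the same comparison: earlier results of these data had placed Scgb2b7, Scgb1b7 and Scgb1b29 among the largest differences between diets. The levels, fold changes and calls of members are therefore given as a description, with no p-value. Exorbital LGs, which lie under the skin below the ear and drain into the tear film, were taken from female C57BL/6J mice of 10 to 11 months. The AL group had free access to food (4 libraries). The CR group had been kept on a 40% restriction for 4 months, from an age of 6 to 7 months (4 libraries), and no transgene, deletion or other agent is named for either diet. Libraries were made with a 3' mRNA kit and held 12051881 to 22156511 counts in AL and 13720079 to 19310319 in CR. Levels are given as CPM, counts relative to library sizes scaled by relative log expression (RLE) factors, and since each transcript is read near its 3' end they were not divided by transcript length. Where 4 values of a diet are given, they are in the order of replicates 1 to 4. The floor of 3 counts corresponded to 0.152 to 0.231 CPM, which covers counting error only, because the reads carried no molecular identifiers.

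Secretoglobins are small secreted proteins that pair through disulfide bonds. In the mouse the largest branch is the androgen-binding protein (ABP) family, in which an alpha subunit encoded by an Scgb1b gene joins a beta-gamma subunit encoded by an Scgb2b gene, and the dimers are released into tears and saliva, where they are known for a role in mate recognition. Other branches work in the airway, among them Scgb1a1, the club cell secretory protein, and Scgb3a1 and Scgb3a2.

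All 30 members matched an annotated gene by symbol in GENCODE on GRCm38, and 26 of them lie in a cluster of 2.837 Mb on chromosome 7 (chr7:31263757-34100837). This interval holds 63 annotated secretoglobin genes and pseudogenes, of which 26 are in the count table. In 7 of the 8 pairs of alpha and beta-gamma members with the same number, the genes as annotated in GENCODE stand head to head on opposite strands. Scgb1b20 and Scgb2b20 start 6.91 kb apart, as do Scgb1b7 and Scgb2b7, Scgb1b24 and Scgb2b24 start 4.49 kb apart, and Scgb1b27 and Scgb2b27 start 7.54 kb apart. Scgb1b2 and Scgb2b2 are the exception there, since their annotated exons overlap on opposite strands, and whether the counting used strand is not given in the sources used here. RefSeq differs: its Scgb2b2 promoter (stretch at chr7:31302571-31302615) lies inside the GENCODE gene (chr7:31290508-31304977) and past Scgb1b2 (chr7:31290519-31291821). From the RefSeq start this pair also stands head to head. Scgb2b1 is annotated as an unprocessed pseudogene in GENCODE and has a promoter in the RefSeq table.

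The promoters of 22 members were read from RefSeq on GRCm38.p6, each spanning 250 bases before to 50 bases after the annotated start. The 3 below are shown because they stand for an abundant alpha gene, a beta-gamma gene with a much lower mean in CR, and a beta-gamma gene with a higher mean in CR. Neither beta-gamma gene was called in the main test. Each is printed from 250 bases before to 30 bases after the start, 5' to 3' along the gene. Capitals mark TGTTCT, which is an arm of the element bound by the glucocorticoid receptor, and TATAA, the core of a TATA box, both searched on both strands.
Scgb1b2 promoter (chr7:31291787-31292066, minus strand): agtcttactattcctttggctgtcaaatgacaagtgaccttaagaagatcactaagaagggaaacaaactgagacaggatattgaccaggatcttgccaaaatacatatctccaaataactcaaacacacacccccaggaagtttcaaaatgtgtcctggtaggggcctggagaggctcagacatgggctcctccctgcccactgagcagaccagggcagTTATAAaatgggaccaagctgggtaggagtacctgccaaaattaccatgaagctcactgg
Scgb2b20 promoter (chr7:33366290-33366569, minus strand): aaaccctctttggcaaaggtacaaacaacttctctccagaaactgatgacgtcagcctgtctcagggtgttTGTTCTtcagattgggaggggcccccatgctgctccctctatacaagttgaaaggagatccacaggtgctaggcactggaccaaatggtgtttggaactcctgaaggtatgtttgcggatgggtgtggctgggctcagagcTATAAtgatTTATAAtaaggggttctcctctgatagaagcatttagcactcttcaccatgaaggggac
Scgb2b27 promoter (chr7:34013913-34014192, minus strand): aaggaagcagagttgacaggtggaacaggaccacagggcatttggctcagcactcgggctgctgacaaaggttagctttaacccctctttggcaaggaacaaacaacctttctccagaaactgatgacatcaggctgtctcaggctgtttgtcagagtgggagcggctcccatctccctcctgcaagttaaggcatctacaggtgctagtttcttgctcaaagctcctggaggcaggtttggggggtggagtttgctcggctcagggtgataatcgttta

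TGTTCT occurred in 11 of 15 Scgb2b promoters and in 0 of 5 Scgb1b promoters, against 19% of the 32851 promoters in the table. TATAA occurred in 15 of 15 Scgb2b and 4 of 5 Scgb1b promoters, against 24.9% of all. In Scgb2b27, Scgb1b27 and Scgb1b30 the matches begin 27, 41 and 37 bases downstream of the annotated start, so the printed Scgb2b27 sequence shows none complete, and 14 of 15 Scgb2b and 2 of 5 Scgb1b promoters held a match before the start. The paired element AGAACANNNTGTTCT was in none of the 20 promoters of these subfamilies and in 0.00913% of all. In 9 Scgb2b promoters TGTTCT was part of a longer run, TGTTTGTTCTTCAG, which was present in 14 of all promoters (0.0426%) and was picked after the sequences had been read. The stretch of 45 bases around this run is shown for 6 of the beta-gamma genes with counts, in the order of the cluster, with TGTTCT in capitals.
Scgb2b1 (chr7:31263546-31263590): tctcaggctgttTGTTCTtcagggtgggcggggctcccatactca
Scgb2b2 (chr7:31302571-31302615): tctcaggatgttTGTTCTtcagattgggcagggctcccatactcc
Scgb2b7 (chr7:31705904-31705948): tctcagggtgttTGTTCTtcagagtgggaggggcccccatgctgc
Scgb2b20 (chr7:33366466-33366510): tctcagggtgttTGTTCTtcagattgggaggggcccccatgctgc
Scgb2b26 (chr7:33945127-33945171): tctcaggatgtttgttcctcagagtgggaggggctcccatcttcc
Scgb2b27 (chr7:34014011-34014055): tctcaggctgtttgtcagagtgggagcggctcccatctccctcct
The run was intact in the first 4 and was not matched in Scgb2b26 and Scgb2b27. Of the genes with counts that are not shown, Scgb2b11, Scgb2b18 and Scgb2b24 also held the run, and Scgb2b3, Scgb2b19 and Scgb2b21 did not. Aligned with free ends, the Scgb2b20 promoter was identical to that of Scgb2b7 at 98.7% of 297 positions, to that of Scgb2b2 at 78.2% of 294 and to that of Scgb2b27 at 72.7% of 245. Over the 105 pairs of Scgb2b promoters identity ranged from 70.9 to 100% (median 80.7%). These matches are letters in a window and do not show binding.

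Of the 30 members, 25 had at least 1 count and 14 passed the filter on low counts. The 5 without a count were Scgb1a1, Scgb2b12, Scgb2b15, Scgb2b17 and Scgb3a2. The other 11 reached at most 18 counts in any library, 5 of them stayed under 3 counts in every library, and the highest mean among them was 0.53 CPM (Scgb1b30). Scgb3a1, an airway secretoglobin, had 2 counts in CR replicate 3, 1 in CR replicate 4 and 0 in the other libraries. The transcripts of the family in this gland were thus nearly all ABP transcripts.

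The family took 23.8, 20.8, 20.3 and 26.3% of all counts in AL and 12.2, 9.28, 12.3 and 23.5% in CR. CR replicates 1 to 3 lay below every AL library, and CR replicate 4 lay within the AL range. The mean share was 22.8% ± 2.81 (SD, n = 4) in AL and 14.3% ± 6.26 (SD, n = 4) in CR, a difference of -8.52 percentage points, and -11.6 without CR replicate 4. Scgb1b2 and Scgb2b2 together made up 17.4% ± 1.5 of AL counts and 12.0% ± 5.13 of CR counts (SD, n = 4 each). Scgb1b20 and Scgb2b20 made up 1.36% ± 0.926 in AL and 0.0584% ± 0.0694 in CR (SD, n = 4 each).

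**Figure D1:**
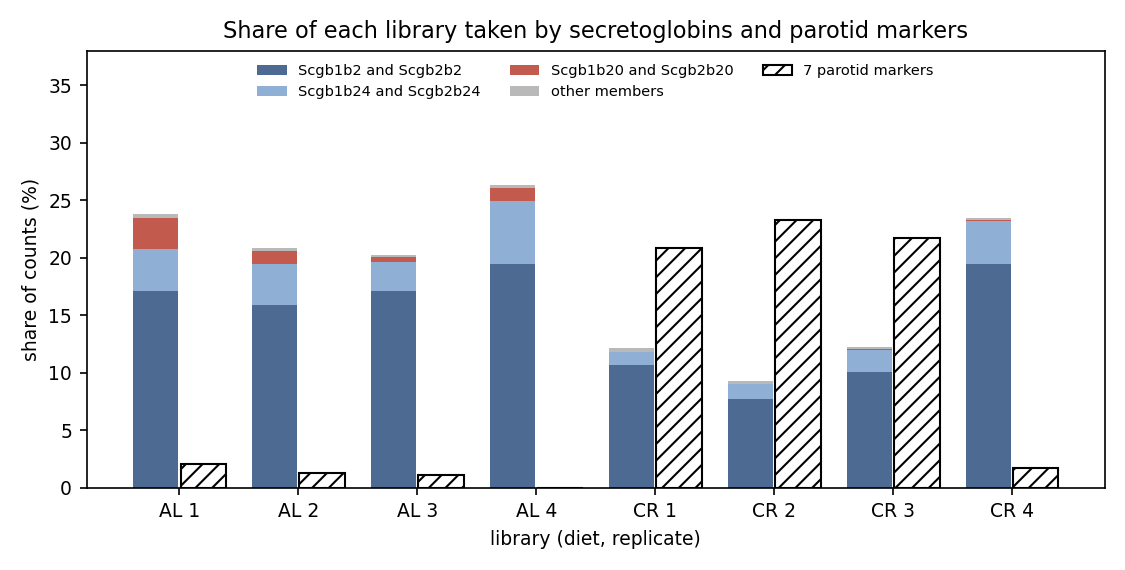
Share of each library's counts (vertical axis, %) taken by secretoglobins, stacked by pair, and by 7 markers of the parotid gland (hatched bars), for the 4 AL and 4 CR libraries on the horizontal axis. The stacked bars were lowest in CR replicates 1 to 3, at 9.28 to 12.3%, where the hatched bars were 20.8 to 23.3%, and CR replicate 4 had 23.5 and 1.68%.

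The edgeR quasi-likelihood test over 11211 genes put 3 of the 14 tested members past an adjusted p of 0.05 and a fold change of 1.5 as lower in CR (Scgb1b7, Scgb2b7 and Scgb1b29), where 0.785% of all genes tested were called lower, and 0 of 14 as higher, where 1.2% of all were. At an unadjusted p under 0.05 in edgeR, whatever the fold change, 8 members were lower and 2 higher, where 8.1 and 8.62% of all genes tested were. On the same 11211 genes DESeq2 called 7 members lower and 1 higher, where 2.83 and 3.43% of all were, and with its own filtering on 16735 genes it called 8 of 25 members lower and 0 higher, where 1.89 and 2.47% of all were. With the replicate number as a block, 8 members were called lower (the same 3 with Scgb1b20, Scgb2b20, Scgb1b24, Scgb2b1 and Scgb2b26), where 2.78% of all genes were, and 2 higher (Scgb1b27 and Scgb2b27), where 3.46% were. Without CR replicate 4 the counts were 7 lower and 1 higher, where 2.17 and 3.97% of all genes were called. Leaving out AL replicate 1, AL replicate 2, CR replicate 2 or CR replicate 3 left only Scgb1b29 called, and the calls over all genes were then 35, 26, 25 and 26 lower, beside 88 with all libraries. In 6 members every CR library was below every AL library (Scgb1b20, Scgb2b20, Scgb1b7, Scgb2b7, Scgb1b29 and Scgb2b26), where 5.2% of all genes tested had that order, and in 0 members every CR library was above, where 4.58% had. Nothing is read from these counts, because the family was proposed from this comparison. The median log2 fold change (CR minus AL) of the 14 members was -1.20, beside 0.01 over all genes tested, and it was below 0 in 12 of 14 members, beside 48.9% of all genes. Nothing is read from these values either. Scgb1b7, Scgb2b7 and Scgb1b29 passed the filter on low counts through their AL libraries, and linked members share reads.

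**Figure D2:**
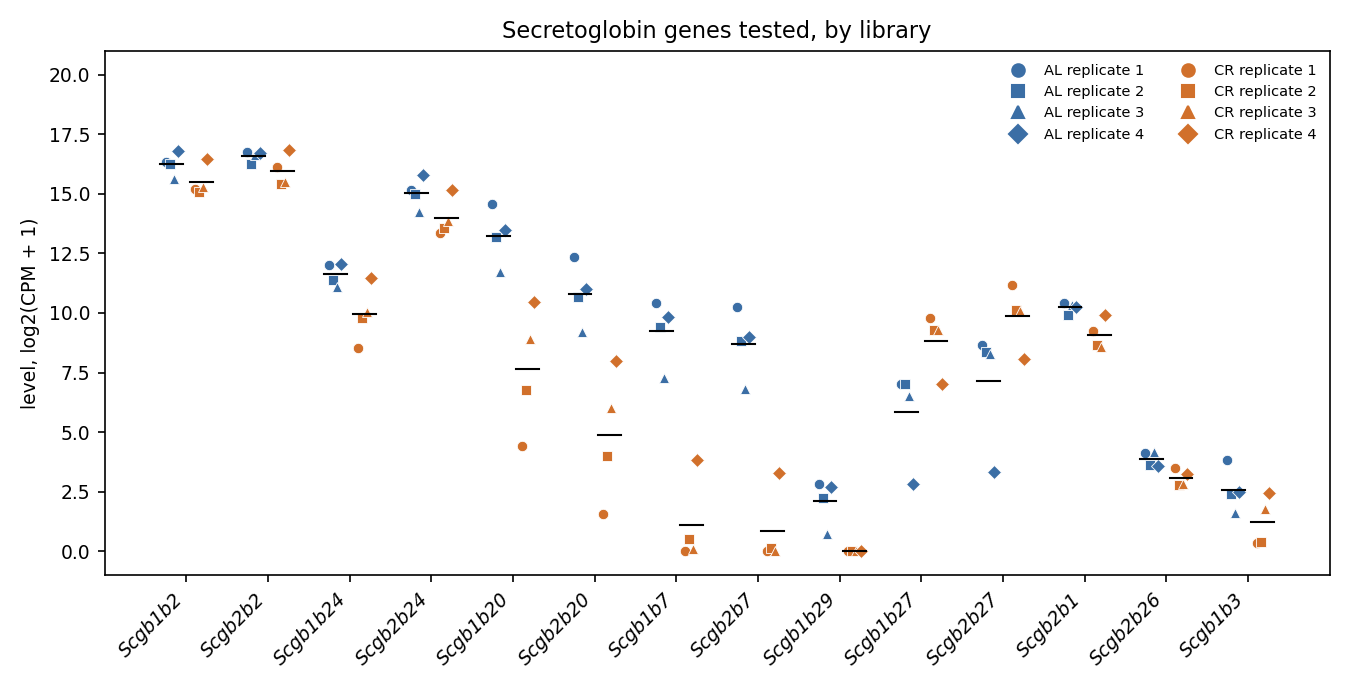
Level of the 14 tested secretoglobin genes, as log2(CPM + 1) on the vertical axis, in AL (blue) and CR (orange) libraries, with the marker shape giving the replicate number and black bars the mean of 4 libraries. Scgb1b7, Scgb2b7 and Scgb1b29 stood at or near 0 in CR replicates 1 to 3, Scgb1b20 and Scgb2b20 were below AL in every CR library, and Scgb1b27 and Scgb2b27 were lowest in AL replicate 4.

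The Scgb1b20 and Scgb2b20 pair, an alpha and a beta-gamma subunit gene, was far lower in CR and well counted in AL. Scgb1b20 was at 24524, 9421, 3332 and 11440 CPM in AL and at 20.5, 110, 486 and 1403 CPM in CR. Scgb2b20 was at 5146, 1646, 595 and 2071 CPM in AL and at 1.98, 14.9, 64.1 and 250 CPM in CR. The groups did not overlap for either gene, AL replicate 3 was the lowest AL library and CR replicate 1 the lowest CR library for both, and the CR libraries differed among themselves by 68.4-fold for Scgb1b20 and 126-fold for Scgb2b20. The log2 fold change was -4.59 (SE 1.09) for Scgb1b20 and -4.84 (SE 1.17) for Scgb2b20. Without CR replicate 4 these were -5.89 and -6.45, and without AL replicate 1 they were -3.99 and -4.11. Neither was called in the main test, and both were called with the replicate block and without CR replicate 4.

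The Scgb1b7 and Scgb2b7 pair, which also codes for an alpha and a beta-gamma subunit, was well counted in AL and had almost no counts in CR. Scgb1b7 was at 1369, 676, 152 and 912 CPM in AL and at 0, 0.414, 0.0619 and 13.1 CPM in CR, where it had 0, 7, 1 and 235 counts. Scgb2b7 was at 1204, 450, 111 and 513 CPM in AL and had 0, 2, 0 and 158 counts in CR. The groups did not overlap, AL replicate 3 was again the lowest of its group, and nearly all CR counts came from replicate 4. The log2 fold change was -7.82 (SE 1.45) for Scgb1b7 and -7.96 (SE 1.45) for Scgb2b7. Without CR replicate 4 the CR group held 8 counts of Scgb1b7 and 2 of Scgb2b7, too few for a fitted fold change to be given. Both calls were lost without AL replicate 1, AL replicate 2, CR replicate 2 or CR replicate 3.

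Scgb1b29, an alpha gene, had 79, 60, 9 and 107 counts in AL and 0 in the 4 CR libraries. Against the floor of 3 counts in each CR library it was at least 21.4-fold lower in CR. Scgb2b11 had 13, 8, 0 and 9 counts in AL and 0 in the 4 CR libraries, and Scgb2b18 had 3, 4, 0 and 18 in AL and 0, 0, 0 and 5 in CR. Neither passed the filter of the main test, and DESeq2 with its own filtering called Scgb2b11 lower.

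Reads from these genes cannot all be told apart. Windows of 75 bases, the read length, were taken from the last 600 transcript bases of each member and searched on the same strand in the 3' ends of all other annotated transcripts. No window was shared by 15 members, among them Scgb1b2, Scgb2b2, Scgb1b24, Scgb2b24, Scgb1b27, Scgb2b27, Scgb2b1 and Scgb2b26. Every window was shared by 2 members, Scgb1b29 and Scgb2b15. For the other members with steep differences the share was 60.6% in Scgb1b7, 45.8% in Scgb1b20, 36.1% in Scgb2b20 and 18.4% in Scgb2b7. All 208 windows of Scgb1b29 are also in Scgb1b7, Scgb1b20 has 139 of its 347 windows in common with Scgb1b7, and Scgb2b20 has 159 of its 449 in common with Scgb2b7. These shares depend on the stretch searched: in the last 300 bases they were 51.4% for Scgb1b29, 46.9% for Scgb1b7, 41.6% for Scgb1b20, 62.8% for Scgb2b20 and 31.4% for Scgb2b7. How HTSeq treated reads with several alignments is not given in the sources used here, so the split of counts within these groups is uncertain.

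As counted, the split differed between diets. For every 100 counts of Scgb1b20, Scgb1b7 had 5.58, 7.18, 4.56 and 7.98 counts in AL and 0, 0.378, 0.0127 and 0.93 in CR. Per 100 counts of Scgb2b20, Scgb2b7 had 23.4, 27.3, 18.7 and 24.8 counts in AL and 0, 0.797, 0 and 3.51 in CR. The ratios did not overlap between diets, which describes the counts as assigned and is subject to the same uncertainty. Per 100 counts of Scgb1b7, Scgb1b29 had 0.445, 0.544, 0.432 and 0.595 counts in AL, which is close to constant. Summed over the 6 linked Scgb1b genes the log2 fold change was -4.67, and over the 8 linked Scgb2b genes it was -5.11. Neither sum was called.

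**Figure D3:**
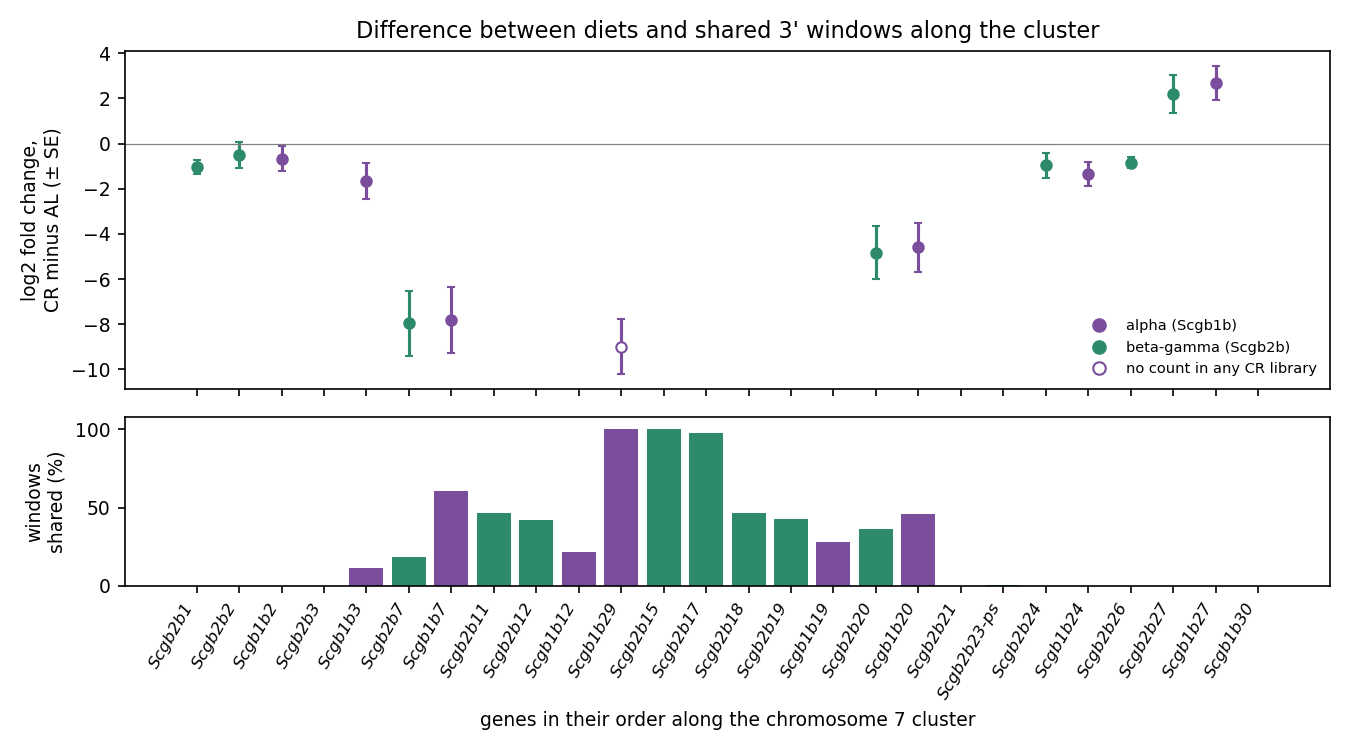
The 26 members of the chromosome 7 cluster in their order along the chromosome (horizontal axis), with the log2 fold change of the 14 tested members and its SE (top) and the share of 75-base windows at the 3' end that occur in another gene (bottom, %). The largest differences, from -4.59 to -8.99, were in the genes with shared windows, and the open circle marks Scgb1b29, whose fitted value has no CR count behind it.

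The most counted pair, Scgb1b2 and Scgb2b2, overlapped between diets. Scgb2b2, the beta-gamma gene with the highest level of the family, was at 109748, 78748, 99834 and 106161 CPM in AL and at 71444, 43117, 45724 and 117646 CPM in CR. Scgb1b2, its alpha partner by number, was at 81712, 78217, 50716 and 112940 CPM in AL and at 37841, 34076, 40085 and 91086 CPM in CR. In both genes CR replicates 1 to 3 lay below every AL library and CR replicate 4 lay inside or above the AL range. The log2 fold change was -0.51 (SE 0.56) for Scgb2b2 and -0.67 (SE 0.56) for Scgb1b2, and without CR replicate 4 it was -0.89 and -1.12.

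Scgb1b24 and Scgb2b24, a further pair, overlapped between diets through the same library. Scgb2b24 was at 37114, 32184, 19460 and 56544 CPM in AL and at 10552, 12111, 14792 and 36929 CPM in CR. Scgb1b24 was at 4140, 2693, 2165 and 4204 CPM in AL and at 365, 889, 1053 and 2832 CPM in CR. Again CR replicates 1 to 3 were below every AL library and CR replicate 4 was not. The log2 fold change was -0.97 (SE 0.55) for Scgb2b24 and -1.36 (SE 0.52) for Scgb1b24, or -1.54 and -2.10 without CR replicate 4. Scgb1b24 was called with the replicate block and without CR replicate 4.

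Among beta-gamma genes with no alpha member of the same number in the table, Scgb2b1 was at 1371, 970, 1301 and 1212 CPM in AL and at 601, 403, 377 and 975 CPM in CR. CR replicate 4 was just above AL replicate 2, so the groups overlapped by that library alone, and the log2 fold change was -1.04 (SE 0.32). Scgb2b26 was at 16.3, 11.3, 16.9 and 10.9 CPM in AL and at 10.3, 5.92, 6.07 and 8.39 CPM in CR, without overlap, with a log2 fold change of -0.85 (SE 0.25). Both were called with the replicate block. Scgb1b3, an alpha gene, had 174, 69, 28 and 91 counts in AL and 4, 5, 40 and 81 in CR, and its groups overlapped (log2 fold change -1.66, SE 0.78, or -0.93 without AL replicate 1 and -2.55 without CR replicate 4).

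Scgb1b27 and Scgb2b27, which encode the alpha and a beta-gamma subunit known from mouse saliva, were the tested members with higher means in CR. Scgb2b27 was at 407, 327, 308 and 9.08 CPM in AL and at 2332, 1111, 1091 and 270 CPM in CR. Scgb1b27 was at 128, 129, 90.3 and 6.09 CPM in AL and at 887, 626, 619 and 127 CPM in CR. AL replicate 4 was far below the other AL libraries and CR replicate 4 was below AL replicates 1 and 2, so the groups overlapped. The log2 fold change was 2.19 (SE 0.84) for Scgb2b27 and 2.68 (SE 0.75) for Scgb1b27. The main test called neither, the replicate block called both, and without CR replicate 4 Scgb1b27 was called.

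Markers of the parotid gland, a salivary gland next to the exorbital LG, were also higher on average in CR. The list of 7 markers took 2.11, 1.30, 1.13 and 0.0213% of counts in AL and 20.8, 23.3, 21.7 and 1.68% in CR. Bpifa2, the parotid secretory protein, was at 17744, 9816, 7918 and 190 CPM in AL and at 167976, 165198, 151207 and 13700 CPM in CR, and the salivary amylase gene Amy1 was at 5630, 2860, 1881 and 45.4 CPM in AL and at 39288, 50756, 31811 and 3277 CPM in CR. In Bpifa2 and Amy1, as in Scgb1b27 and Scgb2b27, AL replicate 4 was the lowest library and CR replicates 1 to 3 were the highest. That order did not hold for Prb1, Prh1 and Prp2, where CR replicate 4 (419, 361 and 62.0 CPM) was above CR replicate 3 (233, 217 and 20.7 CPM). Prh1 and Prp2 were at 0 in AL replicates 2 and 4. All 7 markers were counted, and 3 of the 7 were called higher (Prb1, Prh1 and Prp2, genes of proline-rich salivary proteins), where 1.2% of all genes tested were. In edgeR 7 of 7 were higher at an unadjusted p under 0.05, where 8.62% of all genes tested were. Per 100 counts of Bpifa2, Scgb2b27 had 2.29, 3.33, 3.89 and 4.78 counts in AL and 1.39, 0.673, 0.721 and 1.97 in CR, so it differed less between diets than Bpifa2 did. The part of these transcripts in the levels of the secretoglobins was not tested beyond the values given here. After the 7 markers were taken out of the totals, the family made up 24.3, 21.1, 20.5 and 26.3% of counts in AL and 15.4, 12.1, 15.7 and 23.9% in CR.

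The mean level of the 7 markers as log2(CPM + 1) was 7.09, 5.72, 5.86 and 2.36 in AL and 11.4, 12.7, 9.79 and 8.88 in CR. This score did not overlap between diets, so a fit that holds both cannot tell them apart. With the score as a covariate, 0 of 14 members were called, and over all 11211 genes 0 were called lower and 4 higher, so the loss of calls was not limited to the members. In that fit an unadjusted p under 0.05 was found in 6 of 14 members and in 9.5% of all genes. Under that fit the log2 fold change changed sign to 0.45 for Scgb1b2, 0.10 for Scgb2b2, 0.43 for Scgb2b24, -1.19 for Scgb1b27 and -2.46 for Scgb2b27. It stayed below 0 but was nearer to it for Scgb1b24 (-0.25, beside -1.36 without the covariate), Scgb2b1 (-0.60, beside -1.04) and Scgb1b3 (-0.995, beside -1.66). It was also below 0 for Scgb2b26 (-1.17, beside -0.85), Scgb1b20 (-3.35), Scgb2b20 (-3.61), Scgb1b7 (-6.29), Scgb2b7 (-6.93) and Scgb1b29 (-8.68). A list of 12 LG markers was also read, all of which were counted in every library. Their presence does not measure how much of the RNA came from other glands. Pip was at 18087 to 30564 CPM in AL and 17975 to 42368 CPM in CR. Pax6 was at 50.1 to 89.1 CPM in AL and 25.1 to 75.9 CPM in CR. Of the 12, 1 was called (Sox10, higher in CR, log2 fold change 2.13, SE 0.32), where 1.2% of all genes tested were called higher. With Sox10, 6 had an unadjusted p under 0.05 in edgeR, where 8.1% of all genes tested were lower and 8.62% higher. Beside Sox10, the log2 fold change was 1.68 for Car6, 1.53 for Barx2, 1.32 for Dnase1 and 0.37 for Sox9, and -1.16 for Ltf. Of 9 submandibular and sublingual markers, 8 were in the table, Smgc was at 0 and Muc19 was at or below 0.186 CPM, while Smr3a, a salivary gene, was at 78.1 to 4469 CPM in AL and 4775 to 53197 CPM in CR. Of 5 lipid enzyme genes of the Harderian and Meibomian glands none exceeded 2.5 CPM. Of 4 club cell markers, Scgb1a1 was at 0, Foxj1 and Sftpb did not exceed 0.141 CPM and Cyp2f2, which is not limited to the airway, was at 192 to 432 CPM. In RNA of a whole gland, fewer cells of a type and less RNA per cell cannot be told apart.

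In the pairs numbered 20 and 27 the ratio of the alpha to the beta-gamma gene varied little relative to the wide span of their levels. In those numbered 2 and 24 it varied more relative to the levels. Taken alone, the SD of the log2 ratio over the 8 libraries was 0.36, 0.43, 0.39 and 0.53 for pairs 20, 27, 2 and 24, so it was not smaller in pair 27 than in pair 2. The log2 ratio of Scgb1b20 to Scgb2b20 (CPM) was 2.43 ± 0.12 in AL and 2.92 ± 0.36 in CR (SD, n = 4 each), while the level of Scgb1b20 spanned 10.2 units and that of Scgb2b20 10.8. Spans here and below are of log2(CPM + 1). For Scgb1b27 and Scgb2b27 it was -1.34 ± 0.54 in AL and -1.03 ± 0.27 in CR, over spans of 6.97 and 7.85 units. The 2 pairs thus ran together over their whole range of levels. For Scgb1b7 and Scgb2b7, which were both above the floor in 5 libraries, it was 0.51 ± 0.27 in AL (SD, n = 4) and 0.57 in CR replicate 4. For Scgb1b24 and Scgb2b24 it was -3.42 ± 0.30 in AL and -4.04 ± 0.55 in CR, with a range from -4.85 in CR replicate 1 to -3.16, over spans of 3.52 and 2.42 units. For Scgb1b2 and Scgb2b2 it was -0.33 ± 0.49 in AL and -0.45 ± 0.32 in CR (SD, n = 4 each), over spans of 1.73 and 1.45 units, so here the spread of the ratio was a larger part of the span.

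**Figure D4:**
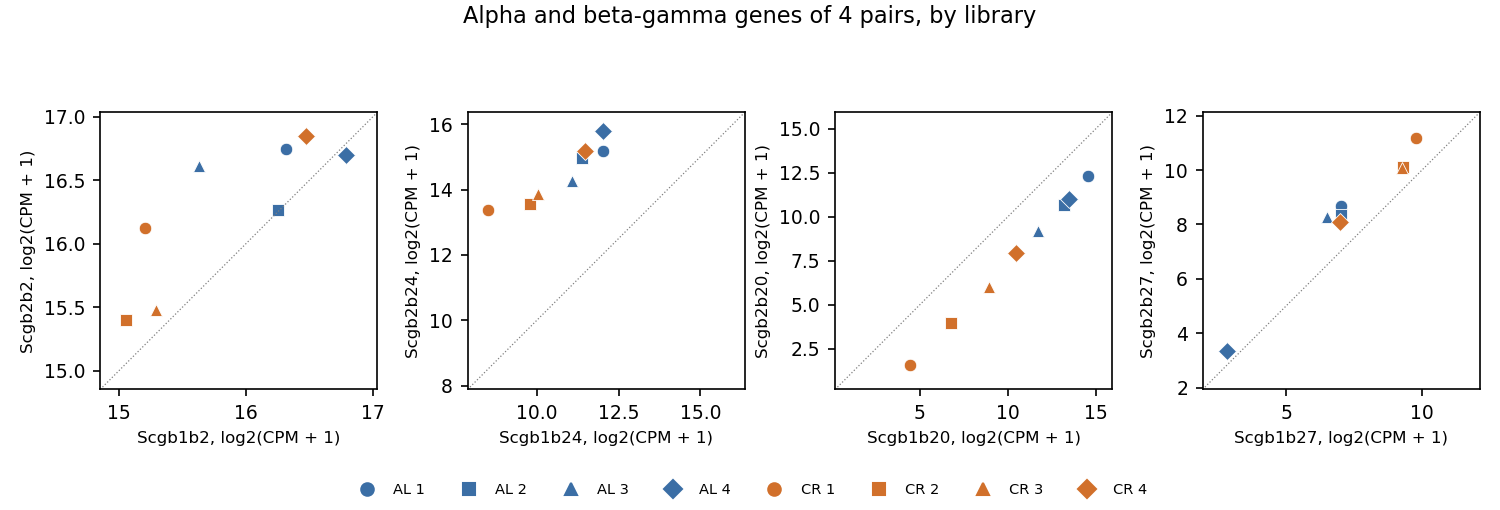
Level of the alpha gene (horizontal axis) against the beta-gamma gene (vertical axis) of 4 pairs, both as log2(CPM + 1), with a point per library coloured by diet, the marker shape giving the replicate number and the dotted line marking equal levels. Points of Scgb1b20 and Scgb2b20 and of Scgb1b27 and Scgb2b27 run parallel to the dotted line, and those of Scgb1b2 and Scgb2b2 scatter over a narrow range.

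Across the 8 libraries some members ran close to a reference gene, by the SD of their log2 ratio (CPM + 1) to it. Against Scgb2b2 the SD was 0.29 for Scgb2b1, 0.39 for Scgb1b2 and for Scgb2b26 and 0.58 for Scgb2b24, and 4.20 for Scgb1b7. Against Scgb1b20 it was 0.23 for Scgb2b20, 1.72 for Scgb2b7 and 1.82 for Scgb1b7, and 5.44 for Scgb2b27. Against Scgb2b27 it was 0.44 for Scgb1b27, and 2.57 or more for the other members. Scgb1b24, Scgb1b3 and Scgb1b29 lay further off, at 0.94, 0.90 and 1.10 against Scgb2b2 and at 2.37, 2.54 and 2.55 against Scgb1b20. These are descriptions over 8 libraries that share 2 diets and the depth of each library.

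Outside the family, the 5 genes with the smallest SD of the log2 ratio to Scgb2b2 were Obp1a, an odorant-binding protein (0.20), Hsp90b1, a chaperone of the endoplasmic reticulum (0.20), Pdia6, a protein disulfide isomerase (0.20), Slco1a6, an organic anion transporter (0.20), and Sdf2l1, a further protein of the endoplasmic reticulum (0.22), where the median over 11197 genes was 0.67. None of the 5 was called. The same was done for Scgb1b20 and Scgb2b27, which were added as references after their values had been seen. Nearest to Scgb1b20 were Pnliprp1, a lipase-related protein (1.87), Lipo1 (1.95), Esp3, an exocrine gland-secreted peptide (2.04), Ly6f (2.05) and Fgg, the fibrinogen gamma chain (2.08), where the median was 3.55, and Pnliprp1 (165 ± 73.1 CPM in AL and 2.85 ± 3.47 in CR, SD, n = 4 each), Esp3 and Ly6f were called lower. Nearest to Scgb2b27 were 2310057J18Rik (0.66), Ggh, gamma-glutamyl hydrolase (0.83), Cldn22, a claudin (0.89), Crisp1, a cysteine-rich secretory protein (0.90), and Klk1, the glandular kallikrein (0.93), where the median was 2.40. None of these 5 was called. Each of the 5 was higher on average in CR.

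A list of 14 factors and receptors that act on secretoglobin genes in other tissues was also read. Of these, 11 were tested and 0 were called, where 0.785% of all genes tested were called lower and 1.2% higher. At an unadjusted p under 0.05 in edgeR, where 8.1% of all genes tested were lower and 8.62% higher, there was 1 of the 11. That gene was Cebpb, a transcription factor of the C/EBP family, at 1.93, 1.41, 1.82 and 1.93 CPM in AL and at 3.54, 3.79, 3.22 and 4.28 CPM in CR. Its groups did not overlap, and its log2 fold change was 1.06 (SE 0.30), with a Benjamini-Hochberg adjusted p of 0.0986 in edgeR and of 0.0489 in DESeq2, which called 1 of the list. Prlr, the prolactin receptor, was at 28.6 to 51.5 CPM in AL and 26.3 to 35.6 in CR, and Nr3c1, the glucocorticoid receptor, was at 21.5 to 24.3 CPM in AL and 17.0 to 28.6 in CR. Esr1, the oestrogen receptor alpha gene, did not exceed 0.859 CPM and was not tested, and Foxa2 and Nkx2-1, which drive airway secretoglobins, were at 0.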

How the data were processed

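RNA from the LGs of 4 AL and 4 CR mice was sequenced with the Lexogen QuantSeq FWD kit, as single reads of 75 bases. The raw counts per gene that the authors deposited were used here. Per the study's methods and the submitters' processing notes, they come from HTSeq after trimming with cutadapt and alignment to mm10 with STAR. The log2 values that the authors deposited are log2 of each count divided by the DESeq2 RLE size factor, plus 1. Recomputed, they differed by at most 5e-14, and they were not used further. Options for strand and for reads with several alignments are not given in the sources used here.

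The table holds 24557 rows, and 24552 genes remained after 5 repeated symbols were dropped. The members and all gene lists were chosen with earlier results of these data known. CR was compared with AL with edgeR 4.0.16 in R 4.3.3 (RLE factors, filterByExpr, quasi-likelihood F test, Benjamini-Hochberg adjustment over 11211 genes). Calls needed an adjusted p below 0.05 together with a fold change of 1.5 or more. The SE was taken as the ratio of the log2 fold change to the root of F, and the biological coefficient of variation was 34.7%. The p-values measure the spread between these 8 libraries. The pipeline was tested on simulated data.

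Values in every library are given for the 12 members with the highest mean CPM and for members called, and other members are given by counts. Outside the family they are given for Bpifa2, Amy1 and Cebpb. Other listed genes are given by range, fold change, single values or number called. The genes nearest in log2 ratio to Scgb2b2, Scgb1b20 and Scgb2b27 are given by the SD of that ratio. Positions are from GENCODE vM21 on GRCm38 and promoters from RefSeq on GRCm38.p6. Protein sequences were not used here, and 1 gene of the lists is not reported here. The alternatives were TMM factors, factors without the members, DESeq2 1.42.0 with its own filtering and, added after seeing the data, on the genes of the main filter, no filter on low counts, a replicate block, the parotid score as a covariate, summed paralogs and leaving out each library. The numbers on the labels were checked for pairing. Deviations from the group means of libraries with the same number correlated across 11211 genes at 0.21, 0.11, 0.30 and 0.54 for numbers 1 to 4, and AL replicate 3 correlated more with CR replicate 1 (0.41) than with CR replicate 3. Since each was above 0.1, the numbers were treated as pairs in the block, although the labels name no shared litter, batch or day.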

Additional observations from a re-analysis of the deposited data

Results flagged for a closer look

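In 30 groups of 4 libraries (14 members and the share of counts on the family, in each diet) the highest or lowest library was compared with the others by the gap to its nearest neighbour over the range, and 4 groups exceeded Dixon's critical value for 4 samples. That value is set for about 1 in 20 of independent, normal samples. These groups share the same 8 libraries and linked genes, so that rate is no reference for the count of 4. In the 4 cases the library was CR replicate 4, and it was the highest. It had 91086 CPM of Scgb1b2 (gap over range 0.895), 36929 CPM of Scgb2b24 (0.839), 13.1 CPM of Scgb1b7 (0.968) and 8.77 CPM of Scgb2b7 (0.987). The same library had the lowest share of parotid markers among the CR libraries, 1.68% of counts beside 20.8 to 23.3%. The part of that difference in these values was not tested.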

How the results depend on the processing

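With 4 libraries a diet and a biological coefficient of variation of 34.7%, the number of members called depended on the fit. The 3 members called lower became 8 with DESeq2 and its own filtering (316 lower of 16735 genes), 5 in edgeR without a filter on low counts (165 of 16735), 7 with DESeq2 on the 11211 genes of the main filter (317), a setting chosen after seeing the data, 8 with the replicate block, 0 with the parotid score in the model and 0 with paralogs summed (a fit in which the 3 are no longer tested singly and 10 members or sums are, the 2 sums having log2 fold changes of -4.67 and -5.11), and 1 to 7 when a library was left out, 7 being without CR replicate 4. The 0 members called higher became 1 without the filter, 1 with DESeq2 on the 11211 genes and 2 with the replicate block, and 0 to 1 when a library was left out. The block also moved the calls over all genes to 312 lower and 388 higher. Of the regulator list, DESeq2 called 1 on either set of genes, and leaving out a library gave 0 to 1. With the parotid score in the model, the fitted log2 fold change reversed to 0.45 for Scgb1b2, 0.10 for Scgb2b2, 0.43 for Scgb2b24, -1.19 for Scgb1b27 and -2.46 for Scgb2b27, and the cause was not tested. The score did not overlap between diets, so score and diet cannot be told apart in that fit. TMM factors and factors without the members called the same 3 members. Of the fitted values of single members under an alternative, 178 kept their direction and side of the threshold, 24 passed it, 11 no longer passed it and 5 reversed. The difference in the family's share of counts was -6.32 percentage points after the parotid markers were removed and -6.85 to -11.6 when a library was left out. Members with every window shared were Scgb2b15 and Scgb2b17 with the last 300 bases, where Scgb1b29 had 51.4% shared (2 members), and Scgb1b29, Scgb2b15 and Scgb2b17 with windows of 50 bases (3 members). With 75 bases read near the 3' end, the depth cannot assign reads of identical paralogs.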
